A study of Homo sapiens with 14 samples.

Results

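The comparison described here is between K562 cells in which TASOR was silenced and K562 cells carrying a control guide. K562 is an established human cell line, started from a chronic myeloid leukaemia. All cells carry dCas9-KRAB, an inactive Cas9 joined to a repressor domain, which lowers transcription where a guide RNA directs it (CRISPR interference). The TASOR group holds 1 library for each of 2 guides (sg1-TASOR and sg2-TASOR), and the control group holds 3 libraries with a guide against AAVS1 (sgAAVS1), all taken 7 days after transduction. A second control is 2 libraries of untransduced dCas9-KRAB cells, for which no time is given, and the study also silenced TASOR2, MPP8 and PPHLN1 (Periphilin) in the same way. The 2 TASOR guides were averaged before deposit. The gene rows of the deposited table were compared where the TASOR or the sgAAVS1 mean was above 0, which left 15922 of 35805 gene rows.

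TASOR is the scaffold of the HUSH complex, which also contains MPP8 and Periphilin and silences integrated retroviruses, LINE-1 elements, retrogenes and other long intronless transcribed DNA. MPP8 binds methylated histone H3 lysine 9, and HUSH recruits the methyltransferase SETDB1 and the chromatin compactor MORC2. TASOR2 is the scaffold of a related assembly, HUSH2, which shares MPP8 and Periphilin.

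Values are group means of log2 normalised reads, on a scale close to log2 RPM (reads scaled to a common depth). Depth per library, as a geometric mean, was 6945067 reads for TASOR, 6202795 for sgAAVS1 and 7406968 for untransduced cells, and 5857937 to 5963710 for the other knockdowns. The table holds means only, so no spread between guides or libraries, no SD and no p-value can be given. A gene was called higher or lower where the means differed by at least 1 on the log2 scale, the higher mean was above 0, and the difference was clear of 0 by its 95% counting interval. The value after ± is the half-width of that interval, which covers counting error alone. All 15 K562 markers, among them GATA1, TAL1, KLF1 and the globins, had means above 0. Their summed log2 level was 10.95 in sgAAVS1 and 11.05 in TASOR. Among markers of other cells, CD8A (T cells), MS4A1 (B cells), S100A8 and S100A9 (monocytes), KRT5 (epithelium) and LUM (fibroblasts) were at 0 reads in both groups. The summed log2 level in sgAAVS1 and TASOR was 4.93 and 4.93 for 5 T-cell markers, 3.90 and 4.34 for 5 B-cell markers, 5.86 and 6.07 for 5 monocyte markers, 8.85 and 8.88 for 5 epithelial markers and 6.12 and 6.16 for 5 fibroblast markers. In bulk RNA, fewer cells making a transcript and less of it per cell cannot be told apart.

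The targeted transcript was low in the TASOR group and in no other. TASOR, named FAM208A in the table (chr3:56620133-56683237, minus strand, hg38), had a mean of 7.35 in untransduced cells, 7.22 in sgAAVS1, 3.29 in TASOR, 7.69 in TASOR2, 7.34 in MPP8 and 7.39 in PPHLN1. The difference from sgAAVS1 was -3.93 ± 0.25, so that 6.56% of the control level was left. The stretch before its start site is shown because it is rich in CG pairs (capitals). It is the 250 bases upstream of the RefSeq start, chr3:56683266-56683515, minus strand, GRCh38.p14, with 37 CG pairs, against a median of 21 over 10126 tested genes with a RefSeq window. The sources used here give no guide positions, so none is marked.
TASOR: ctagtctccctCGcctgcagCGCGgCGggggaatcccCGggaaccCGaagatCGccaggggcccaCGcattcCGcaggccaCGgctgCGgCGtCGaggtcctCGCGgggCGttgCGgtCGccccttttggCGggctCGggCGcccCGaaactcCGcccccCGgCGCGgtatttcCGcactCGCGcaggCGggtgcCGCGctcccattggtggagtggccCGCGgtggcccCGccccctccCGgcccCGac

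Genes next to the target did not follow it. CCDC66, whose 3′ end overlaps that of FAM208A on the other strand, had means of 5.67 in sgAAVS1 and 5.70 in TASOR (0.03 ± 0.14). ARHGEF3, the next gene upstream, had 1.87 and 2.01 (0.14 ± 0.52) beside 2.78 in untransduced cells, and ERC2 had -0.58 and 0.03 (0.60 ± 1.20). The other subunits stayed near their control levels. FAM208B, which encodes TASOR2, had 7.45 in sgAAVS1 and 7.68 in TASOR (0.23 ± 0.07). PPHLN1 had 6.57 and 6.79 (0.23 ± 0.10), and MPHOSPH8, which encodes MPP8, had 6.52 and 6.70 (0.18 ± 0.10). These differences lie close to 0.16, the median over all tested genes, and none of the 24 HUSH effectors and partners tested was called. Their differences ran from -0.01 to 0.29.

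Against sgAAVS1, 305 genes were higher (1.92% of those tested) and 51 were lower (0.32%). Most of the higher genes were scarce transcripts. Of the 305, 230 had a higher mean between 0 and 2, 56 between 2 and 4, 14 between 4 and 6, 5 between 6 and 8, and none above 8. The whole distribution was also shifted, with the TASOR mean above the sgAAVS1 mean in 88.1% of genes. That median shift fell from 0.28 in the lowest class of levels to 0.08 in the highest. The shift's cause was not tested, and after the median was subtracted 194 genes were higher and 90 lower.

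**Figure D1:**
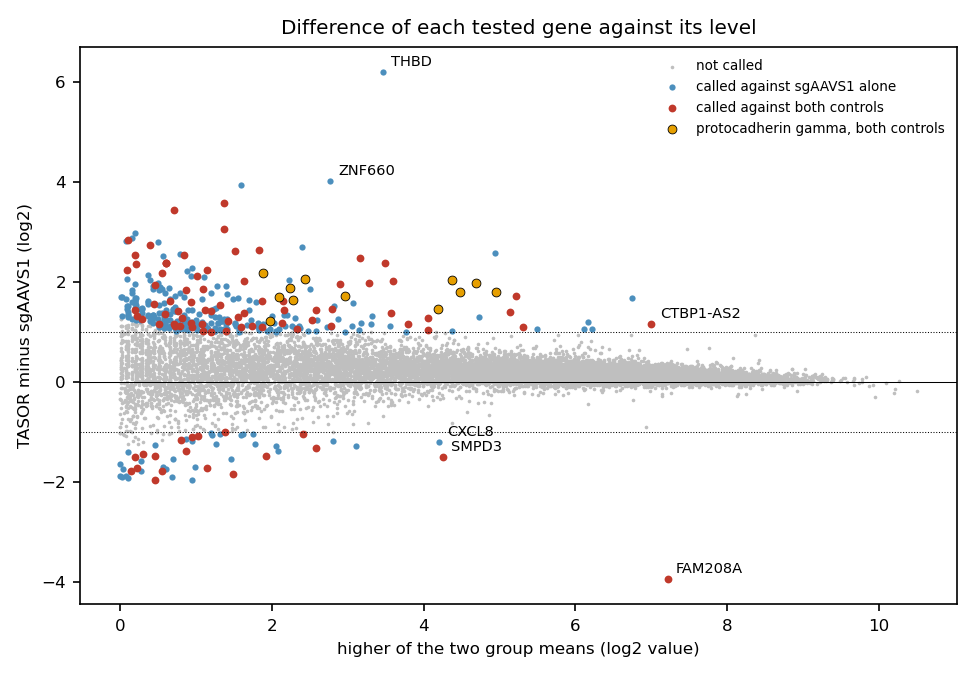
Each point is 1 of 15922 tested genes, with the higher of the TASOR and sgAAVS1 group means on the x axis (log2 value) and TASOR minus sgAAVS1 on the y axis (log2). Dotted lines mark a difference of 1 in either direction, and the called genes lie mainly at low levels, with FAM208A alone near -3.93 at a level of 7.22.

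The choice of control decided most of these calls. Against untransduced cells, 193 of the same genes were higher (1.21%) and 79 lower (0.496%). Against both controls, 83 were higher (0.521%) and 19 lower (0.119%), including FAM208A itself. This balance depended on the scaling, with 49 higher and 39 lower than both controls once the median was subtracted. With quantiles matched between groups, 39 were higher and 68 lower than both controls, and 111 and 161 against sgAAVS1. Untransduced cells compared with sgAAVS1 by the same rule gave 215 higher (1.36%) and 36 lower (0.227%) of 15854 genes, and these counts share the sgAAVS1 libraries with the ones above. Of the 305 genes higher in TASOR, 63 were also called higher in untransduced cells than in sgAAVS1. The median difference of the 305 was 1.33 from sgAAVS1 and 0.71 from untransduced cells.

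The largest difference of all shows this most plainly. THBD, which encodes the anticoagulant receptor thrombomodulin and was picked out after its values were seen, had -2.73 in sgAAVS1, where 2 of 3 libraries had 0 reads, 6.19 ± 0.72 below TASOR. It had 3.23 in untransduced cells, 3.46 in TASOR, 3.13 in TASOR2, 3.28 in MPP8 and 3.22 in PPHLN1. The sgAAVS1 group is the one that stands apart. ZNF660, a zinc finger gene, had 2.23 in untransduced cells, -1.24 in sgAAVS1 and 2.77 in TASOR, and LINC01257, a long noncoding RNA, had 1.46, -2.35 and 1.60. Both were called against sgAAVS1 and neither against untransduced cells, so the genes called against both controls are described first.

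Of the 83 genes higher than both controls, 51 were protein-coding and 30 long noncoding. Long noncoding genes made up 36.1% of them and 16.5% of all genes tested, but they were also scarcer. With a higher mean between 0 and 2, 1.75% of long noncoding and 2.52% of protein-coding genes were higher than both controls, and between 2 and 4 the shares were 0.575% and 1.14%. No TASOR library was at 0 reads in any of the 54 genes for which this could be read from the mean. The rule asks for a high TASOR mean, which makes 0 reads unlikely, so this does not show that the 2 guides agreed. The median of the 83 differences was 1.56 from sgAAVS1 and 1.42 from untransduced cells, values that the rule itself sets. Chromosome 5 held 18.1% of them and 4.23% of tested genes, and chromosome 19 held 13.3% and 8.35%.

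The clustered protocadherins account for the chromosome 5 share. These genes encode cadherin-like adhesion molecules of neurons, each with its own first exon and promoter. The exons at the 3′ end are shared among the genes of the gamma cluster. All 22 gamma genes of the table were tested, and 21 were higher than sgAAVS1, 12 of them against both controls. None was lower, and the list median was 1.81, against 0.16 over all genes. PCDHGB7 lost its call against sgAAVS1 when the median was subtracted, and PCDHGA8, PCDHGA9 and PCDHGB7 lost it when quantiles were matched. Against untransduced cells the TASOR mean was above in 22 of 22, by 0.31 to 1.62. None of the 15 alpha and 16 beta genes reached the level for testing, and no alpha gene had a TASOR mean above -2.87.

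The gamma genes with the most reads gave the tightest intervals. PCDHGA4 had 3.53 in untransduced cells, 3.15 in sgAAVS1, 4.95 in TASOR, 2.64 in TASOR2, 4.83 in MPP8 and 5.19 in PPHLN1. Its difference from sgAAVS1 was 1.80 ± 0.26, a 3.49-fold higher level. The 3 groups with a HUSH subunit silenced were high and TASOR2 was not above either control. PCDHGB2 had 3.28, 2.70, 4.69, 2.77, 4.31 and 4.91 in the same order of groups (1.99 ± 0.30 from sgAAVS1). PCDHGA5 had 2.89, 2.34, 4.38, 2.06, 4.32 and 4.46 (2.04 ± 0.34). PCDHGA6 had 3.02, 2.68, 4.49, 2.72, 4.55 and 4.57 (1.81 ± 0.31). In each of these, TASOR, MPP8 and PPHLN1 lay above all other groups. The largest difference in the family was that of PCDHGC5 (2.28 ± 1.13), which had 0.20 in untransduced cells, -1.33 in sgAAVS1 and 0.95 in TASOR and was not called against untransduced cells. The uncalled member was PCDHGB1, with 1.27, 0.81 and 1.64 (0.83 ± 0.68). Because 21 of the 22 gene models end at the same base, 141512979, a read in the shared exons can count for several genes, and the members are not independent measurements. AC005618.6, a long noncoding RNA just before PCDHGA1, had 1.94 in untransduced cells, 1.61 in sgAAVS1 and 2.87 in TASOR (1.26 ± 0.48). It was not called against untransduced cells and lost its call when quantiles were matched.

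**Figure D2:**
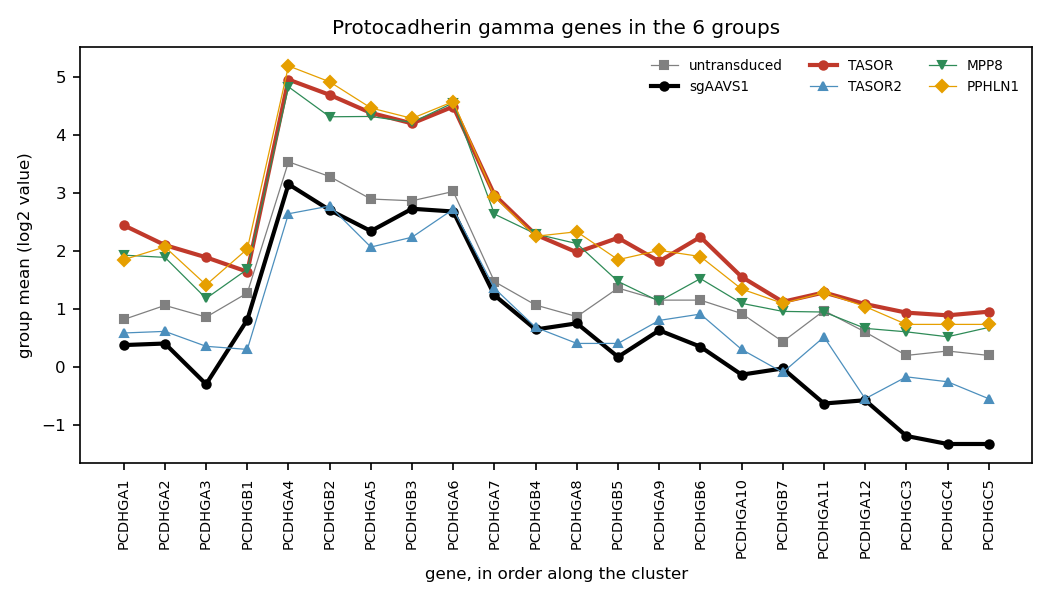
Group means (log2 value, y axis) of the 22 tested protocadherin gamma genes in order along the cluster (x axis), 1 line for each of the 6 groups. TASOR (red) lies above sgAAVS1 (black) and TASOR2 (blue) in 22 of 22 genes, and levels are not scaled by gene length.

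A shared stretch stands before many of these first exons. The 8 bases GCCGCTGT (or ACAGCGGC on the other strand) were the commonest 8-base sequence in the 250 bases upstream of the gamma genes' RefSeq starts, and were chosen for that reason. They occurred in 11 of 20 gamma genes with a window (55%), in 1.23% of all 35116 RefSeq windows and in 2.11% of tested genes with one. Among the other genes higher than both controls with a window, 0 of 33 had it. Within the gamma cluster the share was lower in the genes called against both controls, 5 of 12 (41.7%), than in the remaining ones, 6 of 8 (75%). A match is a description of these letters and not of a bound factor. The 5 of 12 that hold it are shown with 26 bases on either side, and PCDHGB1, the uncalled member, is shown after them. All are from chromosome 5, plus strand, GRCh38.p14, 5′ to 3′, with the shared bases in capitals.
PCDHGA1: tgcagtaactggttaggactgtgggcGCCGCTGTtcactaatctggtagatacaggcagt
PCDHGA7: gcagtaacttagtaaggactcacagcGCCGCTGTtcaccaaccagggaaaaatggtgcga
PCDHGA8: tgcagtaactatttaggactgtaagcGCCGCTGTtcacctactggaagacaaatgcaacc
PCDHGB4: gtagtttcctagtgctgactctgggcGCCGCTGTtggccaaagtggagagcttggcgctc
PCDHGB6: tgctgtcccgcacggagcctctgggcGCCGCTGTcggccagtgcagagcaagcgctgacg
PCDHGB1: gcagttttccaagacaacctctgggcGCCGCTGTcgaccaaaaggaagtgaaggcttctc

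The positions are chr5:141330391-141330450 for PCDHGA1, chr5:141382637-141382696 for PCDHGA7, chr5:141392556-141392615 for PCDHGA8, chr5:141387605-141387664 for PCDHGB4, chr5:141407912-141407971 for PCDHGB6 and chr5:141350013-141350072 for PCDHGB1. The shared bases began 97, 79, 51, 67, 83 and 60 bases before the RefSeq start in that order.

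Outside the protocadherins, the largest differences against both controls were in scarce transcripts of varied kinds. RP11-567N4.3, a long intergenic RNA, had -1.60 in untransduced cells, -2.21 in sgAAVS1, 1.37 in TASOR, -2.70 in TASOR2, -0.27 in MPP8 and 0.51 in PPHLN1 (3.58 ± 0.92 from sgAAVS1). AC084219.4, an antisense RNA, had 0 reads in untransduced cells, -2.73 in sgAAVS1, 0.70 in TASOR, 1.25 in MPP8 and 1.501 in PPHLN1. Against the limit that 0 reads allow over the untransduced group (3 counts, -2.30), its TASOR level was at least 8.04-fold higher. GCSAML, related to a signalling protein of germinal centre B cells, also had 0 reads in untransduced cells, -2.73 in sgAAVS1 and 0.11 in TASOR. That was at least 5.32-fold higher than the untransduced limit. GCSAML had -2.63 in TASOR2, -0.77 in MPP8 and 0.88 in PPHLN1, and lost its call against sgAAVS1 when quantiles were matched.

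BDKRB1, the bradykinin B1 receptor, had -0.44 in untransduced cells, -1.70 in sgAAVS1 and 1.37 in TASOR (3.07 ± 1.07 from sgAAVS1). DSG1, the epidermal desmosome cadherin desmoglein 1, had 0.34, -0.80 and 1.84 (2.64 ± 1.01), the only one of 12 epithelial and desmosome genes called. TDRD5, a tudor-domain protein of germ cells, had 1.82, 0.68 and 3.17 (2.48 ± 0.61). COL28A1, a collagen chain, had 1.56, 1.10 and 3.49 (2.39 ± 0.52), and TNFAIP8L2, a restrainer of immune signalling, had -0.73, -1.70 and 0.84 (2.53 ± 1.13). RSPH14, a protein of the cilium's radial spokes, had -0.94, -1.77 and 0.61 (2.38 ± 1.14). RNF113B, a retrogene copy of RNF113A, had -0.94, -2.35 and 0.40 (2.75 ± 0.99). The remaining large differences were in noncoding RNAs, AC002480.4 (2.61 ± 1.07), FGF14-AS2 (2.54 ± 1.03), CTD-3064H18.4 and CTD-3080P12.3 (2.38 ± 1.14 each) and RP1-102K2.9 (2.36 ± 1.11).

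**Figure D3:**
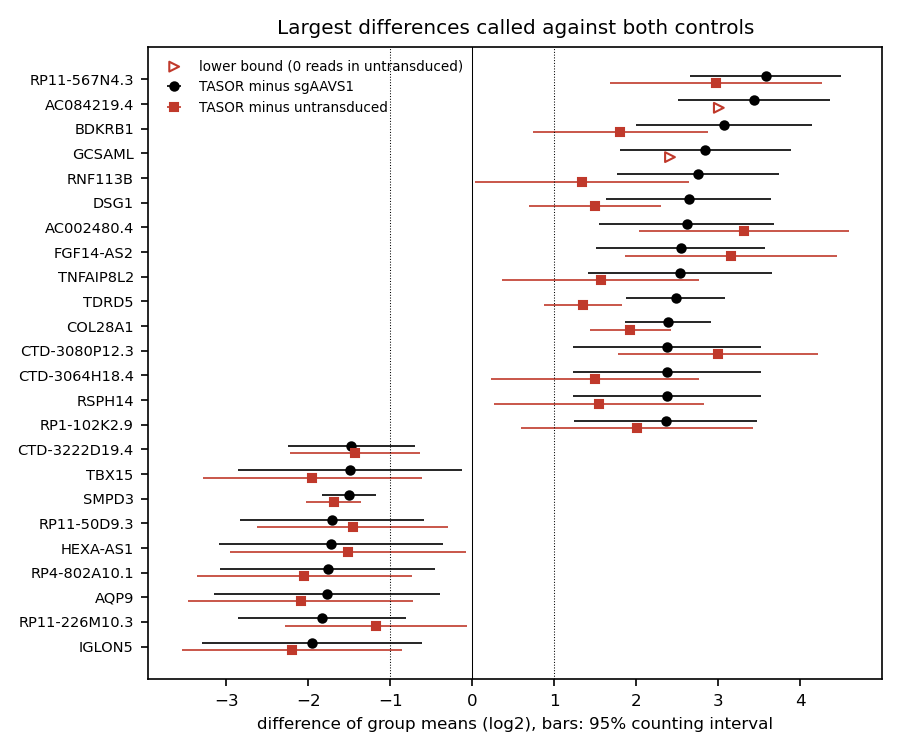
Differences of group means (x axis, log2) for the 15 higher and 9 of the 10 lower genes with the largest differences from sgAAVS1 among genes called against both controls (y axis), with 95% counting intervals as bars. FAM208A (-3.93) is left out, and open triangles are lower bounds for the genes with 0 reads in untransduced cells.

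A few well-measured genes outside the cluster were also higher. CTBP1-AS2, an antisense RNA at CTBP1 and the most abundant of the 83, had 5.78 in untransduced cells, 5.85 in sgAAVS1, 7.004 in TASOR, 5.94 in TASOR2, 6.72 in MPP8 and 6.92 in PPHLN1 (1.16 ± 0.11). ZNF69, a zinc finger gene, had 3.91, 3.74, 5.14, 3.68, 4.77 and 4.97 (1.41 ± 0.22), and ZNF594, another, had 3.94, 4.21, 5.31, 3.80, 5.03 and 5.24 (1.10 ± 0.19). MAP10, a microtubule-associated protein encoded by 1 exon, had 3.05, 2.78, 4.05, 2.34, 3.66 and 3.82 (1.28 ± 0.32). In these 4 genes TASOR, MPP8 and PPHLN1 lay above both controls and above TASOR2.

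Around IL6 on chromosome 7, 3 transcripts annotated as antisense and the gene itself were higher than both controls. AC002480.3 (chr7:22563337-22573996) and AC002480.4 (chr7:22589705-22591622) lie on the plus strand, as IL6 does (chr7:22725884-22732002), and do not overlap it. IL6, the cytokine interleukin 6, had 1.54 in untransduced cells, 1.30 in sgAAVS1, 3.28 in TASOR, 1.53 in TASOR2, 3.30 in MPP8 and 3.64 in PPHLN1 (1.98 ± 0.50). AC002480.3 had 3.95, 3.50, 5.22, 3.51, 5.53 and 5.57 (1.71 ± 0.23), and AC073072.5, which overlaps IL6 on the other strand, had -0.80, -1.10 and 1.01 in the first 3 groups (2.12 ± 1.12). The sources used here do not say whether reads were counted by strand, so IL6 and AC073072.5 may share reads. ZIK1, a zinc finger gene, and the noncoding ZNF528-AS1 were higher than both controls and had lower means in TASOR than in MPP8 and PPHLN1. ZIK1 had 0.94 in sgAAVS1, 2.89 in TASOR, 2.88 in TASOR2, 4.19 in MPP8 and 4.61 in PPHLN1. ZNF528-AS1 had 1.27, 2.52, 2.73, 4.48 and 4.80. In both, TASOR2 was about as high as TASOR.

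Seen against the other knockdowns directly, the 83 genes were chosen for a high TASOR mean, so these counts are a description. TASOR was higher than TASOR2 by the same rule in 58 of them, against 5.28% of all tested genes, and lower in 0 (0.747% of all). It was higher than MPP8 in 20 (1.04% of all) and lower in 2 (0.553%), and higher than PPHLN1 in 14 (0.973% of all) and lower in 3 (0.842%). The median difference was 1.53 from TASOR2, 0.52 from MPP8 and 0.35 from PPHLN1. In 4 genes, TASOR was called higher than each of the 5 other groups by the same rule (0.0251%). They were FGF14-AS2, RP1-102K2.9, C1orf111 and WEE2-AS1. WEE2-AS1 had 0.49 in untransduced cells, 0.49 in sgAAVS1, 1.59 in TASOR, 0.35 in TASOR2, 0.52 in MPP8 and 0.45 in PPHLN1.

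Most lists of genes grouped by function held few calls or none. Of 60 interferon-stimulated genes tested, 1 was higher than sgAAVS1 and none lower, against 1.92% and 0.32% of all genes. That was TNFSF10, the death ligand TRAIL, with 1.002 in untransduced cells, -0.36 in sgAAVS1 and 1.41 in TASOR, which was not called against untransduced cells. SAMD9, another of them, was 0.90 ± 0.28 above sgAAVS1, short of a call, and was called against untransduced cells (1.06 ± 0.31). No gene was called against sgAAVS1 among 16 antigen presentation genes, 55 histone genes, 50 erythroid genes, 39 proliferation genes, 25 ATF4 stress genes, 19 heat shock genes, 16 retroelement restriction factors, 82 ribosomal protein genes, 13 mitochondrially encoded genes, 35 ZSCAN, ZKSCAN and ZFP genes, 14 myeloid genes, 9 lymphoid genes and 9 neuronal genes. Of these, HIST1H1A, CD14 and SYP were called higher and CEBPA lower against untransduced cells alone. The medians of these lists ran from 0.04 for the ATF4 and ribosomal genes to 0.23 for the ZSCAN list. Abundant transcripts such as GATA1, MKI67 and MT-ND4 lie in these lists or among the markers, and MKI67 had 9.19 in sgAAVS1 and 9.29 in TASOR (0.10 ± 0.04). RAG1, the lymphocyte recombinase, fell short of the size for a call, with 4.83 in sgAAVS1, 5.77 in TASOR and 5.90 in PPHLN1 (0.94 ± 0.16).

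Of 449 numbered zinc finger genes, 15 were higher, 3 against both controls (ZNF69, ZNF594 and ZNF534), and none was lower. Over all tested genes 1.92% were higher and 0.521% higher than both controls. The median of the zinc finger genes was 0.27. ZNF534 had 1.22 in untransduced cells, 1.33 in sgAAVS1 and 2.79 in TASOR (1.46 ± 0.52). ZNF606 and ZNF773, by contrast, had 1.20 and 1.49 in TASOR, -0.59 and -0.17 in sgAAVS1, and 0.77 and 0.68 in untransduced cells, and were called against sgAAVS1 alone. Among 33 germline genes, TDRD5 and TDRD6 were higher, TDRD5 alone against both controls. TDRD6, another tudor protein, had 2.22, 1.48 and 3.07 in untransduced cells, sgAAVS1 and TASOR (1.59 ± 0.48 from sgAAVS1).

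Retrogenes are copies of a transcript put back into the genome. Of 14 tested, RNF113B and TAF1L were higher than sgAAVS1 and RNF113B alone than both controls, where all tested genes gave 1.92% and 0.521%. TAF1L, the intronless copy of TAF1, had 1.64 in untransduced cells, 0.64 in sgAAVS1, 2.51 in TASOR, 2.57 in MPP8 and 3.05 in PPHLN1 (1.87 ± 0.65). Single-exon genes made up 9.88% of the genes higher than both controls, 14.4% of those higher than sgAAVS1 and 7.66% of those tested. For protein-coding genes they were 1 of 51, 8 of 180 and 258 of 12929 in the same order. With a higher mean between 0 and 2, 6.25% of single-exon and 11.55% of other protein-coding genes were higher than sgAAVS1. Between 2 and 4 the shares were 8.33% (4 of 48) and 2.68%. Among protein-coding genes, a longest exon of 3 kb or more was found in 41.2% of those higher than both controls, 31.1% of those higher than sgAAVS1 and 29.6% of those tested. With the clustered protocadherins left out, the shares were 33.3% (13 of 39), 28.9% and 29.6%. The lists of extracellular matrix, platelet, LINC and antisense genes held further calls, COL28A1, COL24A1, COL25A1 and FBLN2 of 35 matrix genes, TUBB1 of 12 megakaryocyte and platelet genes, 10 higher and 1 lower of 179 LINC genes and 16 higher and 1 lower of 344 antisense genes. Of all tested genes 1.92% were higher and 0.32% lower, and of long noncoding genes with a higher mean between 0 and 2, 7.71% were higher and 2.54% lower. Of the matrix and platelet genes only COL28A1 and COL25A1 were called against both controls. COL24A1, COL25A1, FBLN2 and TUBB1 lost their call when the median was subtracted or quantiles were matched. TUBB1, the platelet beta tubulin, had 3.40 in untransduced cells, 3.34 in sgAAVS1 and 4.37 in TASOR (1.03 ± 0.27), and LINC00858 had 2.47, 2.20 and 3.57 (1.38 ± 0.38).

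**Figure D4:**
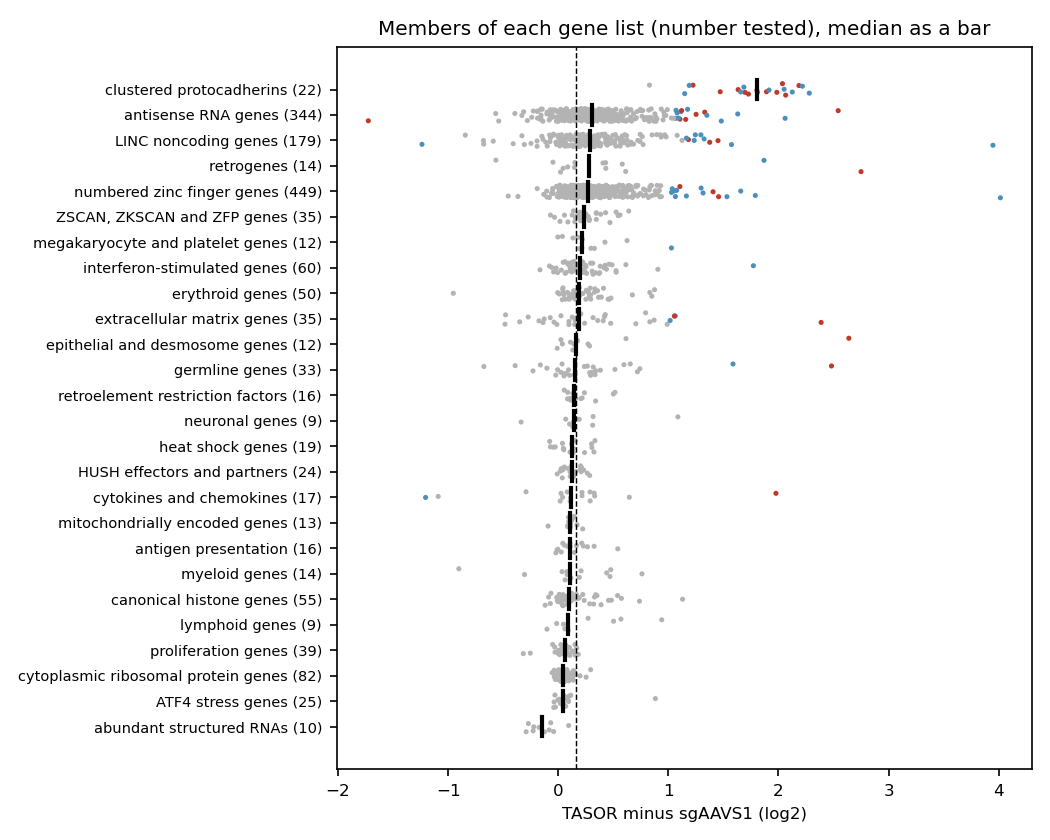
Difference TASOR minus sgAAVS1 (x axis, log2) of each tested member of 26 gene lists (y axis, number tested in parentheses), with the list median as a black bar and the median of all tested genes (0.16) as a dashed line. Red points were called against both controls and blue points against sgAAVS1 alone. The protocadherin median of 1.81 is the bar farthest from the dashed line, followed by the abundant structured RNAs at -0.15.

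Of 17 cytokine and chemokine genes tested, IL6 was higher and CXCL8, the neutrophil chemokine interleukin 8, was lower than sgAAVS1. The list median was 0.11. CXCL8 had 4.20 in sgAAVS1 and 2.99 in TASOR (-1.20 ± 0.31), but 2.30 in untransduced cells, so that TASOR lay between the controls. A run of kallikreins on chromosome 19, KLK8, KLK9 and KLK13, was higher than sgAAVS1 by 1.34 ± 1.19, 1.70 ± 1.26 and 1.32 ± 0.67, and none of the 3 was called against untransduced cells. KLK8 had 0.60 in untransduced cells, above its 0.37 in TASOR.

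Among the lower genes, SMPD3 was the one with the most reads besides the target. SMPD3, which encodes neutral sphingomyelinase 2, had 4.44 in untransduced cells, 4.25 in sgAAVS1, 2.75 in TASOR, 3.76 in TASOR2, 4.23 in MPP8 and 4.61 in PPHLN1. Its difference from sgAAVS1 was -1.505 ± 0.33, or 35.2% of the control level. It and FAM208A were the 2 genes (0.0126%) called lower than each of the 5 other groups by the same rule. IGLON5, a neural adhesion molecule, had 0.70 in untransduced cells, 0.46 in sgAAVS1 and -1.504 in TASOR (-1.96 ± 1.34). AQP9, a water and glycerol channel, had 0.46, 0.14 and -1.64 (-1.78 ± 1.38), and TBX15, a T-box transcription factor, had 0.65, 0.20 and -1.30 (-1.49 ± 1.36). These 3 are scarce and their intervals come close to 0.

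Most other lower genes were noncoding, and many of them lay inside longer genes. Long noncoding genes made up 37 of the 51 lower genes (72.5%) and 16.5% of those tested. A single exon was found in 61.2% of lower genes with an annotation and in 7.66% of tested ones. With a higher mean between 0 and 2, 2.54% of long noncoding and 0.719% of protein-coding genes were lower. Of the 37, 21 lay within a protein-coding gene, all 21 on its strand. Among tested long noncoding genes in that position, 21 of 427 were lower (4.92%) and 3 higher (0.703%). Among those elsewhere, 16 of 2201 were lower (0.727%) and 114 higher (5.18%). Against both controls, 8 were lower and 1 higher in the first class, and 4 lower and 29 higher in the second. Of all tested genes, 0.119% were lower and 0.521% higher than both controls. The median difference from sgAAVS1 was -0.02 for the first class and 0.27 for the second. From untransduced cells it was -0.03 and 0.16. Untransduced cells themselves had a median of -0.003 and 0.11 relative to sgAAVS1 in the 2 classes.

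The surrounding genes were not lower, with 1 exception. Their median difference was 0.12 and their range -1.505 to 0.35. RP11-226M10.3 had 0.83 in untransduced cells, 1.49 in sgAAVS1 and -0.34 in TASOR (-1.83 ± 1.03), while MSI2 around it had 7.73 and 7.85 in sgAAVS1 and TASOR. RP4-802A10.1 had 0.84, 0.55 and -1.21 (-1.77 ± 1.31), and NFIA around it had 6.99 and 7.22. CTD-3222D19.4 had 1.88, 1.93 and 0.45 (-1.48 ± 0.77), and MED26 around it had 5.81 and 6.05. RP11-71L14.3, inside SMPD3, had 0.31 in sgAAVS1 and -1.14 in TASOR, and there both were lower. Reads from introns of the surrounding gene and reads of such a noncoding gene cannot be told apart here. Beside these, the abundant noncoding RNAs MALAT1 and NEAT1 had differences of -0.17 ± 0.03 and -0.29 ± 0.03, and their list of 10 had a median of -0.15. Their part in the result was not tested. Of the remaining named lower genes, the antisense RNAs HEXA-AS1 and RP11-50D9.3 had 0.22 and 1.15 in sgAAVS1 and -1.504 and -0.57 in TASOR.

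**Figure D5:**
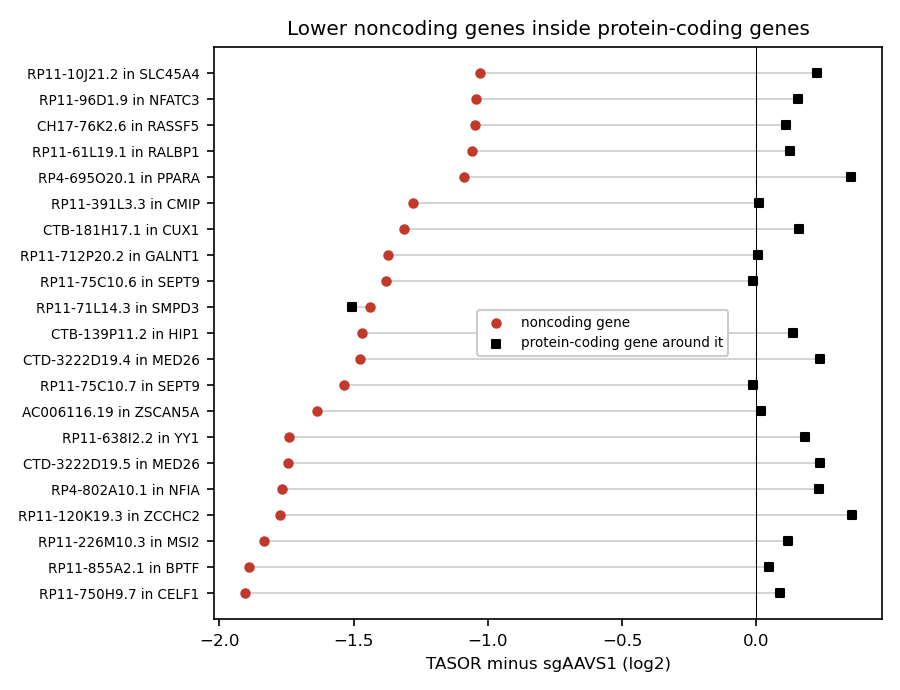
Difference TASOR minus sgAAVS1 (x axis, log2) of the 21 lower noncoding genes that lie inside a protein-coding gene (circles) and of that gene (squares), 1 pair a line. The protein-coding genes lie between -0.01 and 0.35 apart from SMPD3 at -1.505.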

How the data were processed

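Total RNA of K562 cells was depleted of ribosomal RNA and made into stranded libraries, per the labels' protocols. Reads were processed with cutadapt and Bowtie2 on hg38, per the submitters' processing notes. The sources used here give no versions, counter or annotation, and do not say how strand or duplicate reads were treated. The deposited table has 35805 gene rows and 6 columns of values. The untransduced column is an average, per the file headers, which name no unit. Its deposited values were read as log2 from the values themselves. In the same way the other 5 deposited columns were read as quotients, in which the log2 mean of a group stands over that of untransduced cells, a ratio of logs and not a fold change. Multiplying back gave the group means. No column was unused.

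The scale was checked on low values. In all 6 columns, 100% of products of reads up to 100 were whole within 0.001, with 0 reads entered as 0.9 reads, 3 libraries in the sgAAVS1 mean and 2 in each other. The labels list 3 TASOR2 libraries, and the sources used here do not say which 2 entered. Where rows had the same symbol the highest was kept (87 dropped). Products are less exact in 102 rows with untransduced values less than 0.05 from 0. Depth limits precision: 3 counts over a group are the floor, -2.21 for TASOR and -2.63 for sgAAVS1. The planned fits need single libraries, so a rule of size replaced a test. The rule was run on simulated data that held counting error alone. Spread between libraries or guides was not simulated, so its effect on the calls was not tested. GENCODE release 29 (GRCh38) gave gene types, exons and GC content by symbol (12921 genes), older symbol (4) or coordinates overlapping by 80% (2711), with 286 unmatched. The host of a noncoding gene is the most expressed protein-coding gene that contains it.

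Named genes were the 4 targets, the 15 higher and 10 lower genes with the largest difference called against both controls, the 10 largest with a mean above 4, up to 4 called members of each list (or the 2 highest in sgAAVS1), and runs of 3 or more called neighbours. Other genes in the text, such as THBD, CTBP1-AS2, ZNF594, ZIK1 and the hosts, and the split of noncoding genes by host, were chosen after the values were seen. The genes described and the 27 lists were chosen with earlier results of these data known. Alternatives were another scaling, filter, size, control, row rule and GC correction. Python 3.11.15, pandas 2.3.3, numpy 2.4.6, scipy 1.17.1 and statsmodels 0.14.6 were used.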

Additional observations from a re-analysis of the deposited data

How the results depend on the processing

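FAM208A stayed between -3.88 and -4.10 under every scaling, control and GC setting run. The counts of genes depended on the settings more than that. They are given as higher and lower than sgAAVS1, then higher and lower than both controls, where 305, 51, 83 and 19 are the reported ones. Median centring gave 194, 90, 49 and 39, and quantile normalization gave 111, 161, 39 and 68. A higher mean above 2 gave 75, 9, 31 and 4, and no filter on low values gave 494, 125, 138 and 50. A size of 1.5 gave 108, 23, 21 and 6, and a size of 0.6 gave 787, 93, 242 and 41. Calls by size alone moved the last count to 30. Untransduced cells as the control gave 193 higher and 128 lower of 16058 genes, tested on the TASOR or untransduced mean. The 193 and 79 given earlier were of the 15922 genes tested on the TASOR or sgAAVS1 mean. Keeping every row and removing the GC trend left the counts within 1.5 times. Of 71 named called genes, 65 kept their call under median centring, 56 under quantile normalization, 43 with untransduced cells as control and 70 without the GC trend. With untransduced cells as control, CXCL8 (0.70) and KLK8 (-0.23) changed sign. The causes were not tested.

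No paired analysis was possible because the table holds only group means, and leaving out each library in turn was not run for the same reason. No result here has a check on the spread between the 2 guides. Counting error alone limits genes with means below 2, whose median half-width was 0.84, while above 8 it was 0.06.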

Other observations

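Several genes higher than both controls belong to no list above and are given as values. TBXAS1, thromboxane synthase of platelets and macrophages, had 2.26 in untransduced cells, 2.62 in sgAAVS1, 3.79 in TASOR, 1.73 in TASOR2, 3.41 in MPP8 and 3.48 in PPHLN1 (1.17 ± 0.34 from sgAAVS1). MYLK, the myosin light chain kinase of smooth muscle, had 0.87, 0.53, 2.15, 0.53, 1.63 and 1.85 (1.62 ± 0.69). OTOF, the calcium sensor otoferlin of inner hair cells, had 1.15, 0.73, 2.17, 1.44, 1.46 and 1.38 (1.44 ± 0.65). In all of these the TASOR mean was the highest of the 6. SLC14A1, the red-cell urea transporter, had -0.14, 0.37 and 1.40 in untransduced cells, sgAAVS1 and TASOR (1.03 ± 0.79). C10orf25, annotated as an antisense RNA, had 1.60, 1.58 and 3.59 (2.01 ± 0.45).

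Genes higher than both controls had fewer CG pairs before their start than tested genes did. The median in the 250 upstream bases was 7 over the 45 of them with a RefSeq window, 13 over 149 genes higher than sgAAVS1 and 21 over 10126 tested genes. It was 4 over the 7 genes lower than sgAAVS1 that have a window, so a low number was not limited to the higher genes. Called genes are also scarcer, and the part that level plays was not tested.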
